A study of Mus musculus with 8 samples.

Results

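The intestinal epithelium keeps bacteria away from its surface partly by secreting proteins that bind them. The 6 genes described here encode such proteins: the mucosal pentraxins Mptx1 and Mptx2, the resistin-like protein Retnlb, the intelectin Itln1, the Ly6-domain protein Lypd8 and the jacalin-type lectin Zg16. They were listed by symbol and matched through their Ensembl identifiers to the count tables of small intestinal (SI) and colonic (COL) crypts, where all 6 were found among 45706 genes. The genes were selected on how they differed between SI and COL crypts in these same libraries, so their SI and COL values are given as a description without a test.

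RNA-Seq was performed on crypts freshly isolated by EDTA chelation from 4 wild type mice of strain C57BL/6N, with 1 library per tissue from each mouse. No library carried a transgene or had a treatment. The libraries are named SI1 to SI4 and COL1 to COL4 by replicate, and the mouse of replicate 4 is numbered 5 among the donors. In the isolation protocol, which is given for organoid culture, the colon was held in EDTA at a higher concentration and for longer than the small intestine. For the small intestine, that protocol took the proximal part and scraped off the villi beforehand. A crypt preparation holds every cell type of the crypt and whatever villus cells remain attached, so that more cells of a type and more RNA per cell cannot be told apart in these bulk values.

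Pentraxins are secreted proteins that assemble into rings and bind phospholipids and sugars on microbes and dying cells in a calcium-dependent manner, and lectins bind sugars of the bacterial surface. In the gut, these proteins come mainly from goblet cells, which fill the mucus layer, from Paneth cells, the granule-filled cells at the base of small intestinal crypts, and from surface enterocytes. They bind bacteria in the mucus or the lumen, and some of them also kill or immobilise the bacteria they bind.

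Total counts ranged from 15969428 to 32908060 per library, and values are given as counts per 1000000 (CPM) scaled by the trimmed mean of M-values (TMM). Mitochondrial genes took 28.3% and 22.7% of the counts of SI2 and SI3 and 26.9% and 50.8% of those of COL1 and COL2, against 4.83% to 7.35% in the other 4 libraries (95% Wilson intervals within 0.0245 percentage points of each value, counting error only). SI libraries held 59323 to 139480 CPM of a list of 7 enterocyte transcripts (including Apoa1 and Fabp2), with the highest sums in SI1 and SI4, while COL libraries held 242 to 868 CPM of them. A list of 10 Paneth cell markers summed to 339, 3778, 2437 and 1821 CPM in SI1 to SI4 and to 28.7 to 86.7 CPM in COL, where Ang4 and Clps supplied most of the sum in each library. The labelled sex went against the counts in 8 of 8 libraries. The 4 libraries labelled female held 0 to 13 counts of Xist, which is transcribed from the inactive X chromosome, and 2721 to 4285 counts of the Y-linked genes Kdm5d, Eif2s3y, Uty and Ddx3y in sum. The 4 libraries labelled male held 1778 to 7694 counts of Xist and 0 to 11 counts of these Y-linked genes. The groups are therefore called by the replicate number of their mice below, mice 1 and 4 being labelled female and mice 2 and 3 male. Mouse 4 is the donor numbered 5 in the labels.

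Mptx1 (ENSMUSG00000026531) lies at chr1:174330518-174332873 on the forward strand of GRCm38, and its paralog Mptx2 (ENSMUSG00000079180) lies 1.05 Mb away at chr1:173274382-173277777 on the reverse strand. Both encode short pentraxins of the mucosa and belong to the family of the plasma proteins Crp and Apcs. Their longest transcripts were identical at 92.3% of 795 aligned positions, against 57.2% between Mptx1 and Apcs. The 250 bases before the RefSeq start site are shown for both genes because these near-identical copies were high in different tissues. Capitals mark the 6 identical runs of at least 12 bases that they share, which together hold 101 bases. The Mptx1 window is chr1:174330268-174330517 on the forward strand and the Mptx2 window is chr1:173277757-173278006 on the reverse strand (RefSeq, GRCm38.p6), each read 5′ to 3′ in the direction of transcription.
Mptx1: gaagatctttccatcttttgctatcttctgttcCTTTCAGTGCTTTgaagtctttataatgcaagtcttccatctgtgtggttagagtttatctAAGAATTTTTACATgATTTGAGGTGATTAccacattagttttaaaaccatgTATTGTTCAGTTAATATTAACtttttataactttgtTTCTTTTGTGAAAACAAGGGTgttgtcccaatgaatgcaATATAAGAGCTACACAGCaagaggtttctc
Mptx2: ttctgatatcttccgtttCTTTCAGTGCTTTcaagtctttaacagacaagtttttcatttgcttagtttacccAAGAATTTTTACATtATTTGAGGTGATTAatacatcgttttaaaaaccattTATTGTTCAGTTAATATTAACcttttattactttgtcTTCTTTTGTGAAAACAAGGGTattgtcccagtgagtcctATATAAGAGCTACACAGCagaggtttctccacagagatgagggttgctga
The windows were identical at 83.5% of 236 aligned positions, with a longest identical run of 21 bases. One shared run holds GTTAAT followed directly by its reverse complement ATTAAC, letters that form part of the recognition motif of hepatocyte nuclear factor HNF1. GTTAAT was searched on both strands and found at positions -96 and -90 of Mptx1 and -117 and -111 of Mptx2, while 6.52% of 27025 promoter windows hold it at least once. The windows of Itln1 and Lypd8 do not contain these letters. TATAA, the TATA box core, stands at -29 in Mptx1, the nearest to the start of 5 matches on either strand, and at -49 in Mptx2, whose GENCODE start lies 21 bases upstream of the RefSeq start, and it occurs on either strand in 23.5% of promoter windows. These matches were chosen after the sequences had been seen and describe letters only.

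Mptx1 was the pentraxin of the colon in these libraries. It measured 1271, 1683, 2400 and 1254 CPM in COL1 to COL4 and 1.59, 0.967, 6.49 and 1.01 CPM in SI1 to SI4. The tissues did not overlap, and the lowest COL library stood 193-fold above the highest SI library. The COL mean was 658-fold above the SI mean, and the log2 fold change (SI against COL) came to -9.36 (standard error, SE, 0.86), on 27075 to 89729 counts in COL and 16 to 128 counts in SI. The COL libraries varied little among themselves, with a highest value 1.91-fold above the lowest. Per kb of exon, Mptx1 ranked 18 among 14441 genes in COL crypts.

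Mptx2 had the opposite distribution. It measured 8.15, 124, 98.3 and 33.2 CPM in SI1 to SI4 and 0.293, 1.24, 1.02 and 0.817 CPM in COL1 to COL4. Again the tissues did not overlap, and the lowest SI library, SI1, stood 6.56-fold above the highest COL library. The mean was 78.4-fold higher in SI (log2 fold change 6.32, SE 0.85). COL counts were low, at 10 to 39 per library. The mean log2 difference (SI minus COL) was 7.31 between the libraries with over 20% mitochondrial counts and 4.07 between the others.

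The paralogs share 134 stretches of 50 bases, which is 17.9% of the stretches of the Mptx1 transcript and 18.0% of those of Mptx2, and no other gene shares them. How the authors' counting treated reads from such stretches is not given in the sources used here. Mptx2 counts were 0.0231% to 0.0739% of Mptx1 counts in COL, and Mptx1 counts were 0.777% to 19.4% of Mptx2 counts in SI. The low values of each paralog in the tissue of the other are therefore uncertain, while the high values rest on many counts.

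In SI libraries, Mptx2 varied in parallel with the sum of the Paneth cell markers, though not with each marker. Mptx2 ranged 15.3-fold over the 4 SI libraries and the Paneth marker sum ranged 11.1-fold, and both were lowest in SI1 and highest in SI2. The ratio of Mptx2 to this sum stayed between 0.0182 and 0.0404, a 2.21-fold range. Defa21 and Defa22 were instead highest in SI4, at 115 and 131 CPM, where Mptx2 measured 33.2 CPM. The other markers of the list were highest in SI2. Over the same libraries, the ratio of Mptx2 to the sum of 10 goblet cell markers ranged 47.9-fold. Among the 81 listed genes that were tested, those with profiles nearest to Mptx2 over the 8 libraries were Habp2, Defa17 and Lyz1, which encode the hyaluronan-binding protease, an alpha-defensin and the lysozyme of the Paneth cell list. In the pool of 3602 more abundant genes compared below, the nearest to Mptx2 were Cps1, Slc5a1 and Mgam. Habp2, Defa17 and Lyz1 were too low over the 8 libraries to be in that pool and could not appear there. The libraries share depth and mitochondrial share as well, and SI2 and SI3, the SI libraries with most Mptx2, were those with over 20% mitochondrial counts. The part of cell makeup and RNA quality in these ratios was not tested.

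**Figure D1:**
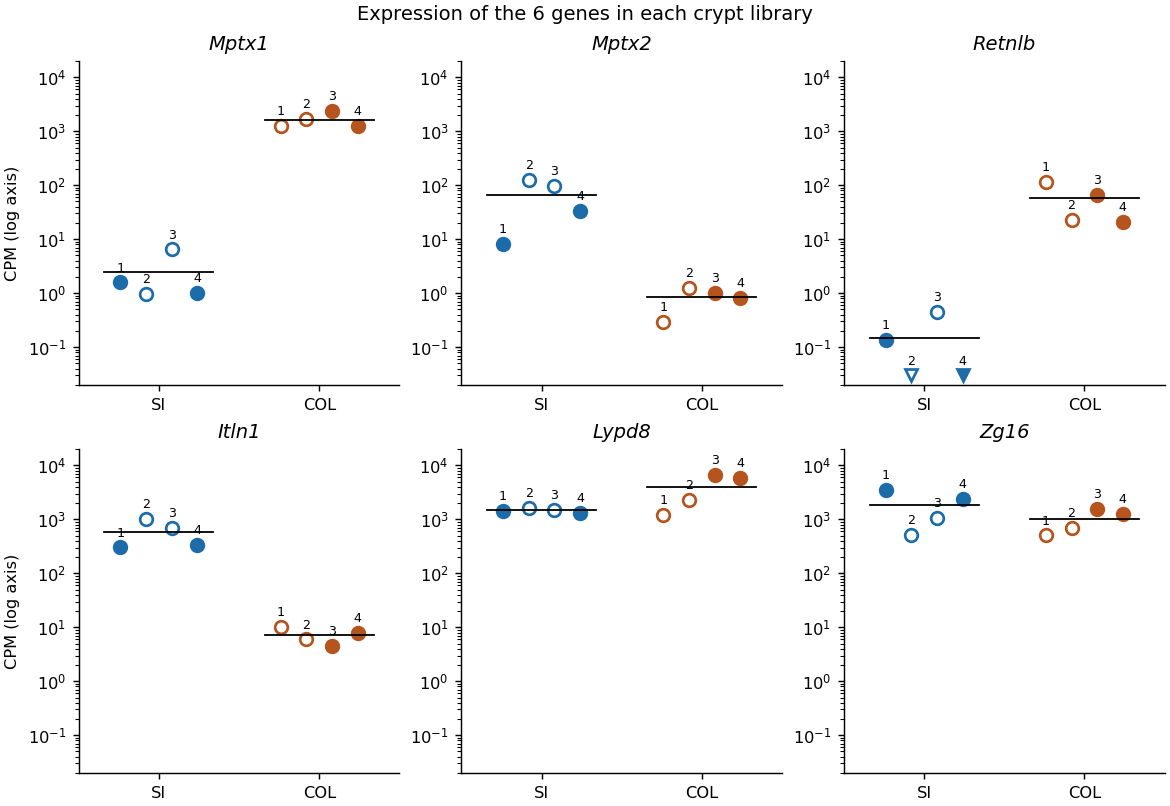
CPM of the 6 genes in each library, on a log axis, with SI libraries in blue and COL libraries in orange. The number above each point is the replicate, the black line is the arithmetic mean of 4 libraries, open symbols have over 20% mitochondrial counts, and triangles at the bottom mark libraries with 0 counts. Mptx1 and Retnlb were higher in every COL library, Mptx2 and Itln1 in every SI library, and Lypd8 and Zg16 overlapped.

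Retnlb (ENSMUSG00000022650, chr16:48816856-48818892, forward strand) encodes RELM-beta, a goblet cell protein that is induced by bacterial colonisation and type 2 cytokines and acts against Gram-negative bacteria. It measured 116, 23.1, 67.3 and 21.1 CPM in COL1 to COL4 and 0.136, 0, 0.456 and 0 CPM in SI1 to SI4. The SI values stand for 3, 0, 9 and 0 counts, so Retnlb was at the limit of detection in SI crypts and a count of 0 in SI2 and SI4 allows up to 0.181 and 0.137 CPM (3 counts, counting error only). The mean was 385-fold higher in COL (log2 fold change -8.53, SE 0.98), and the lowest COL library stood 46.3-fold above the highest SI library. Within COL, it ranged 5.51-fold, against 1.91-fold for Mptx1. The 2 highest and the 2 lowest COL libraries for Retnlb each held 1 library with over 20% mitochondrial counts. Its ratio to Muc2, the main secreted mucin of goblet cells, lay between 0.00194 and 0.00872 in COL.

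Itln1 (ENSMUSG00000038209, chr1:171518122-171535294, reverse strand) encodes intelectin-1, a calcium-dependent lectin that binds sugars found on microbial but not on mammalian glycans. It measured 302, 1013, 687 and 338 CPM in SI1 to SI4 and 10.1, 5.97, 4.55 and 8.0 CPM in COL1 to COL4. The tissues did not overlap, the lowest SI library stood 30.0-fold above the highest COL library, and the mean was 81.9-fold higher in SI (log2 fold change 6.35, SE 0.56). Like Mptx2, it was highest in SI2 and SI3, but it ranged only 3.36-fold over the SI libraries. Its ratio to the Paneth marker sum ranged 4.79-fold and was highest, at 0.890, in SI1, the library with the lowest sum. Of its 50-base stretches, 1.01% also occurred in the gene model Gm9765, and for Retnlb, Lypd8 and Zg16 no shared stretch was found.

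Lypd8 (ENSMUSG00000013643, chr11:58379043-58390728, forward strand) encodes a heavily glycosylated, membrane-anchored protein that is shed into the lumen and binds the flagella of motile bacteria. It was abundant in both tissues, at 1439, 1634, 1516 and 1314 CPM in SI1 to SI4 and 1193, 2302, 6720 and 5959 CPM in COL1 to COL4. COL1 was below every SI library, so the tissues overlapped, and the log2 fold change was -1.45 (SE 0.59). The SI libraries were close together, with a coefficient of variation of 9.11%, which 3.07% of 163 genes of like level (within 2-fold) fell below. In COL the coefficient of variation was 67.0%. The 2 COL libraries with over 20% mitochondrial counts, COL1 and COL2, were the low ones. Between the 2 SI and 2 COL libraries above 20% the mean log2 difference (SI minus COL) was -0.07, and between the 2 and 2 below 20% it was -2.20. A list of 6 transcripts of colonocytes, the absorptive cells of the colon, summed to 6629, 5345, 33495 and 18064 CPM in COL1 to COL4, with Car1 (carbonic anhydrase 1) the most abundant of them in each. Other genes of this list had a different order. Slc26a3, Aqp8 and Ceacam20 were each highest in COL2, where Lypd8 was low, with Aqp8 at 106, 541, 346 and 373 CPM. The part of RNA quality and of colonocyte content in the Lypd8 values was not tested.

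Zg16 (ENSMUSG00000049350, chr7:127050156-127087328, reverse strand) encodes a small goblet cell lectin that binds peptidoglycan of Gram-positive bacteria and clumps them in the mucus. It measured 3496, 510, 1059 and 2421 CPM in SI1 to SI4 and 506, 699, 1578 and 1283 CPM in COL1 to COL4. The tissues overlapped over most of their range, and the log2 fold change was 0.88 (SE 0.62). In both tissues, the libraries with over 20% mitochondrial counts held less of it, by 1.98 on the log2 scale in SI and by 1.26 in COL. Within the high-share libraries the log2 difference (SI minus COL) was 0.30, and within the low-share libraries it was 1.03.

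Zg16 kept a narrow range of ratios to Tff3 across the tissues but not to Muc2 or Clca1. Its ratio to Tff3, the trefoil peptide that goblet cells secrete with mucin, lay between 1.89 and 3.28 in all 8 libraries. Tff3 was also the nearest to Zg16 of the 3602 profiles compared below, and the narrow ratio restates that closeness. The ratio of Zg16 to Muc2 lay between 1.31 and 3.54 in SI and between 0.0312 and 0.204 in COL. To the goblet cell marker Clca1 it lay between 1.79 and 3.11 in SI and between 0.631 and 1.15 in COL. Muc2 itself was 17.1-fold higher in COL (log2 fold change -4.10, SE 0.64, adjusted p = 0.000676 by edgeR's quasi-likelihood test), while Zg16, Tff3 and Fcgbp, which encodes a mucin-associated protein, overlapped between tissues. Fcgbp measured 3930, 1141, 1539 and 2924 CPM in SI1 to SI4, the same order of libraries as Zg16. In COL1 to COL4 it measured 1474, 1543, 1452 and 1548 CPM and was lowest in COL3, where Zg16 was highest.

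**Figure D2:**
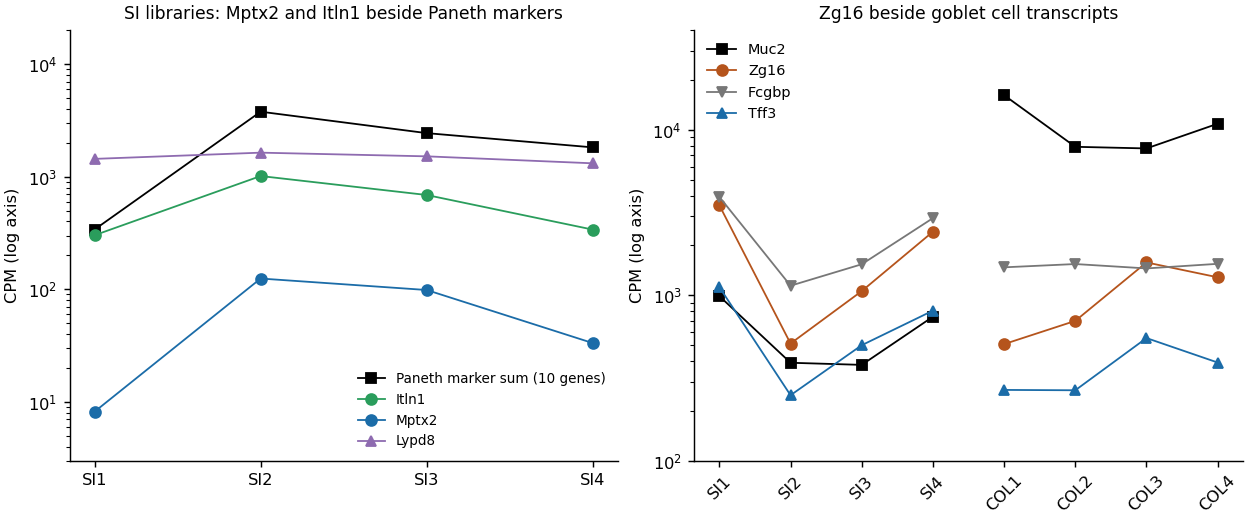
Left, CPM of Mptx2, Itln1 and Lypd8 beside the summed CPM of 10 Paneth cell markers in the SI libraries. Right, CPM of Zg16 beside the goblet cell transcripts Muc2, Fcgbp and Tff3 in all 8 libraries. Both axes are log axes, each point is 1 library, and the lines only join points of a tissue, since replicates have no order. Mptx2 and the Paneth sum are lowest in SI1, and Zg16 lies above Muc2 in each SI library and below it in each COL library.

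Of the 6 genes, 6 passed the filter on low counts. The libraries of the tissues did not overlap for 4 of the 6, 2 higher in SI and 2 higher in COL, while 33.5% of the 14491 genes tested did not overlap in either direction. The same 4 were among the genes with an adjusted p below 0.05 in edgeR's test of SI against COL, which called 28.4% of all genes tested (2253 higher in SI, 1863 higher in COL; under scaling by library size alone, 1115 of 5903 called genes were higher in SI). The median log2 fold change of the 6 was -0.29 and that of all genes -0.09. As the members were selected on this contrast, nothing is read from these counts. No threshold was part of the selection.

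Levels can be compared between genes once they are divided by transcript length. In SI crypts, Zg16 stood highest with 1489 ± 1073 CPM per kb of exon (SD, n = 4), followed by Lypd8 with 1149 ± 105, Itln1 with 513 ± 293, Mptx2 with 83.2 ± 68.5, Mptx1 with 3.14 ± 3.34 and Retnlb with 0.213 ± 0.309. Zg16 and Lypd8 overlapped, and each other neighbouring pair was separated without overlap of libraries. In COL crypts, Lypd8 stood highest with 3149 ± 2109 CPM per kb, followed by Mptx1 with 2068 ± 672, Zg16 with 809 ± 397, Retnlb with 81.9 ± 64.7, Itln1 with 6.26 ± 2.11 and Mptx2 with 1.06 ± 0.51. Here Lypd8 and Mptx1 overlapped. With the length of the longest transcript in place of all exons, Zg16 in COL came to 1406 CPM per kb and also overlapped Mptx1. Per kb, Lypd8 ranked 13 and Zg16 41 of 14441 genes in COL, and Zg16 ranked 44, Lypd8 53 and Itln1 121 in SI. Together the 6 genes took 0.257% to 0.381% of all counts of the SI libraries and 0.447% to 1.40% of those of the COL libraries.

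**Figure D3:**
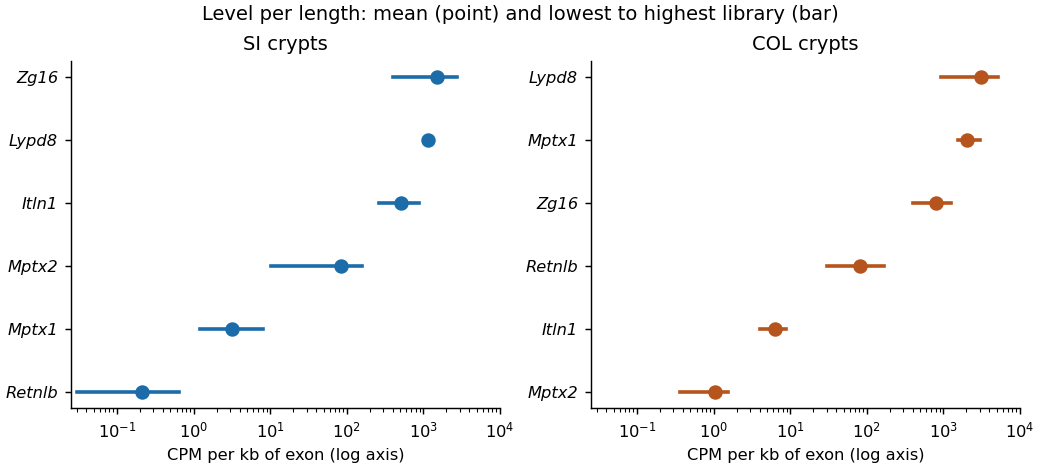
Mean CPM per kb of exon (point) and the lowest to the highest of 4 libraries (bar) for each gene, in SI crypts on the left and COL crypts on the right, on a log axis. The Retnlb bar in SI starts at the left edge because 2 libraries held 0 counts. Lypd8 and Zg16 are among the top 3 in both tissues, while Itln1 lies above Mptx1 in SI and below it in COL.

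The contrast between mice was not used in the selection, so it was tested. Mice 1 and 4 (labelled female) were compared with mice 2 and 3 (labelled male) in each tissue by edgeR's quasi-likelihood test, and 0 of the 6 genes passed in either tissue. The test called 0.0276% of all genes in SI and 0.0276% in COL, which in each tissue were the 4 Y-linked genes named above (named after their values were seen), and they were higher in the libraries labelled female. Without adjustment, 3 of the 6 genes had a p below 0.05 in SI, where 9.58% of all genes did, and 0 in COL, where 1.88% did. Limma-voom and DESeq2 also called 0 of the 6 in either tissue. Retnlb held 0 to 9 counts in the SI libraries and passed the filter on low counts only through COL. Tests that use its SI values, including the interaction below, can therefore decide nothing for Retnlb.

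In SI, Mptx2 measured 8.15 and 33.2 CPM in mice 1 and 4 and 124 and 98.3 CPM in mice 2 and 3 (log2 fold change -2.43, SE 0.65, adjusted p = 0.436 by edgeR). Itln1 lay in the same direction, at 302 and 338 against 1013 and 687 CPM (log2 fold change -1.41, SE 0.49, adjusted p = 0.465 by edgeR). Zg16 lay in the other direction, at 3496 and 2421 against 510 and 1059 CPM (log2 fold change 1.92, SE 0.79, adjusted p = 0.502 by edgeR). The SI libraries of the pairs of mice did not overlap for 4 of the 6 genes, these 3 and Lypd8, which is close to the 53.9% of all genes tested that did not overlap in either direction. With 2 mice a side, none of the differences passed the test. The SI libraries of mice 2 and 3 are also those with over 20% mitochondrial counts and with the lower sums of enterocyte transcripts, so in SI the mice and these properties cannot be told apart. For Lypd8 the log2 fold change was -0.19.

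In COL, where high and low mitochondrial shares occurred in both pairs of mice, the adjusted p was 0.99967 for each of the 6 genes by edgeR. Within the libraries above and below 20%, the log2 differences (mice 1 and 4 minus mice 2 and 3, 1 library a side) were 0.75 and 0.80 for Itln1, -0.47 and -0.30 for Zg16 and -0.40 and -0.94 for Mptx1. For Retnlb they had opposite signs, 2.33 and -1.67.

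Whether the tissue difference varied between the pairs of mice was tested as an interaction, and 0 of the 6 genes passed, with 0% of all genes called by edgeR. At an unadjusted p below 0.05, 761 genes (5.25%) and 1 of the 6 passed, and DESeq2 called 11 genes, none of them a member. Itln1 had the smallest p of the 6 (log2 difference -2.19, SE 0.69, adjusted p = 0.909 by edgeR), its SI minus COL difference being 4.90, 7.39, 7.22 and 5.39 on the log2 scale in mice 1 to 4. For Zg16 the log2 difference was 2.26 (SE 1.09, adjusted p = 0.909 by edgeR), and its SI minus COL difference was 2.79, -0.46, -0.58 and 0.92 in mice 1 to 4. For Mptx1 it lay between -10.66 and -8.51 in the 4 mice.

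The relatives of these genes were described from 13 lists of family members, pathway genes and cell type markers holding 115 genes, of which 113 were in the tables and 81 were tested. By edgeR's test, 32 were higher in SI, 25 were higher in COL and 24 were not called. The same test called 28.4% of all 14491 genes, the share to set beside the counts of each list below. The lists were chosen with earlier results of these data known. Their calls and adjusted p on SI against COL, also that of Muc2 above, are therefore a description.

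The other pentraxins were nearly silent. All 7 (Crp, Apcs, Ptx3, Ptx4, Nptx1, Nptx2 and Nptxr) failed the filter on low counts, and together they summed to 0.226 to 2.43 CPM in SI and 0.649 to 1.76 CPM in COL. Apcs, which encodes serum amyloid P and lies 0.379 Mb from Mptx2, was at 0 in every library. The same held for the resistin family, where Retn, Retnla and Retnlg summed to at most 0.544 CPM in any library. Retnla lies 23659 bases from Retnlb. Within these 2 families, the listed genes thus summed to less than the member described here in each library of the tissue where it was high.

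In the Ly6/uPAR family, to which Lypd8 belongs, 21 of 22 listed genes were in the tables and 8 were tested, with 6 higher in COL and 0 higher in SI (median log2 fold change -2.55). Without SI2 or any 1 COL library, or without a filter, 1 was called higher in SI and 5 to 7 higher in COL. Lypd6, which failed the filter, measured 0.181 to 2.49 CPM in SI and at most 0.0293 CPM in COL. Ly6a, which encodes a surface protein also known as Sca-1, measured 0.778 to 1.75 CPM in SI and 22.9 to 132 CPM in COL (log2 fold change -5.86, SE 0.60, adjusted p = 4.23e-05 by edgeR). Ly6e measured 38.9 to 53.2 CPM in SI and 131 to 468 CPM in COL (log2 fold change -2.48, adjusted p = 0.00103 by edgeR). Ly6g, a neutrophil surface marker, measured 0 to 0.152 CPM in SI and 2.52 to 32.8 CPM in COL. With 0 to 3 counts in the SI libraries, it passed the filter on low counts only through COL, as did Lypd6b with 1 count in each SI library. Plaur, the urokinase receptor, Lypd6b and Ly6g6c were the other 3 that were higher in COL. The whole family list summed to 46.2 to 67.0 CPM in SI and 199.8 to 631 CPM in COL, less than Lypd8 alone in each library.

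Among the galectins, which bind galactosides, 3 of 7 tested were higher in SI (Lgals2, Lgals8 and Lgals9) and 1 was higher in COL (Lgals12). Lgals2 measured 457 to 1006 CPM in SI and 3.17 to 31.2 CPM in COL (log2 fold change 5.97, SE 0.79, adjusted p = 0.000222 by edgeR). Lgals4, the most abundant galectin, measured 4603 to 7429 CPM in SI and 2571 to 6783 CPM in COL and was not called.

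Of the other secreted bacteria-binding proteins, 10 of 17 were tested, and 4 of these had higher values in SI and 4 in COL. Without SI4, 2 were called higher in COL, and 3 with a block for the donor. Those higher in SI were the Reg3 lectins Reg3a, Reg3b and Reg3g, which bind peptidoglycan or damage bacterial membranes, and the mannose-binding lectin gene Mbl2. Reg3b measured 4728 to 7013 CPM in SI and 59.6 to 276 CPM in COL (log2 fold change 4.88, SE 0.64, adjusted p = 0.000196 by edgeR), and Reg3g measured 2469 to 3496 CPM in SI and 31.4 to 231 CPM in COL (log2 fold change 4.58, adjusted p = 0.00031 by edgeR). Mbl2 measured 34.0 to 209.7 CPM in SI and was at 0 in 3 of the 4 COL libraries. Those higher in COL were Reg4, the peptidoglycan recognition protein Pglyrp1, the scavenger receptor Dmbt1 and the ficolin Fcna. Dmbt1 measured 125 to 1157 CPM in SI and 2510 to 5144 CPM in COL (log2 fold change -2.32, adjusted p = 0.0211 by edgeR), and Pglyrp1 measured 57.3 to 112 CPM in SI and 164 to 596 CPM in COL (log2 fold change -2.35, adjusted p = 0.00171 by edgeR). The galectin list had a median log2 fold change of 0.45 and this list one of 0.58, but under scaling by library size alone, which moved the median of all genes from -0.09 to -0.82, these became -0.34 and -0.12 while the numbers called in each direction stayed the same.

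Genes that carry the signals known to induce Retnlb and the Reg3 lectins differed between tissues in both directions. Of 11 tested, 6 were higher in SI and 3 in COL. Those higher in SI were the receptor genes Il4ra, Il13ra1, Il22ra1 and Il10rb and the transcription factor genes Stat3 and Stat6. Il13ra1 measured 66.6 to 169.7 CPM in SI and 19.5 to 25.9 CPM in COL (log2 fold change 2.15, SE 0.34, adjusted p = 0.000691 by edgeR), and Stat6 measured 224 to 336 CPM in SI and 41.3 to 117 CPM in COL (log2 fold change 1.82, adjusted p = 0.00343 by edgeR). Those higher in COL were the bacterial sensors Tlr2, Tlr4 and Tlr5, with log2 fold changes of -5.94, -5.29 and -4.03. They held 0 to 14 counts in the SI libraries and passed the filter on low counts only through COL. Their calls and the size of these fold changes therefore rest on very few SI counts. Tlr4 measured 0 to 0.641 CPM in SI and 3.96 to 8.80 CPM in COL, and Tlr5 0.0453 to 0.458 and 2.81 to 6.09 CPM. Tlr2 measured 0.0453 to 0.641 CPM in SI and 11.1 to 36.9 CPM in COL. Under scaling by library size alone, 4 of the 11 stood higher in SI and 4 in COL.

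**Figure D4:**
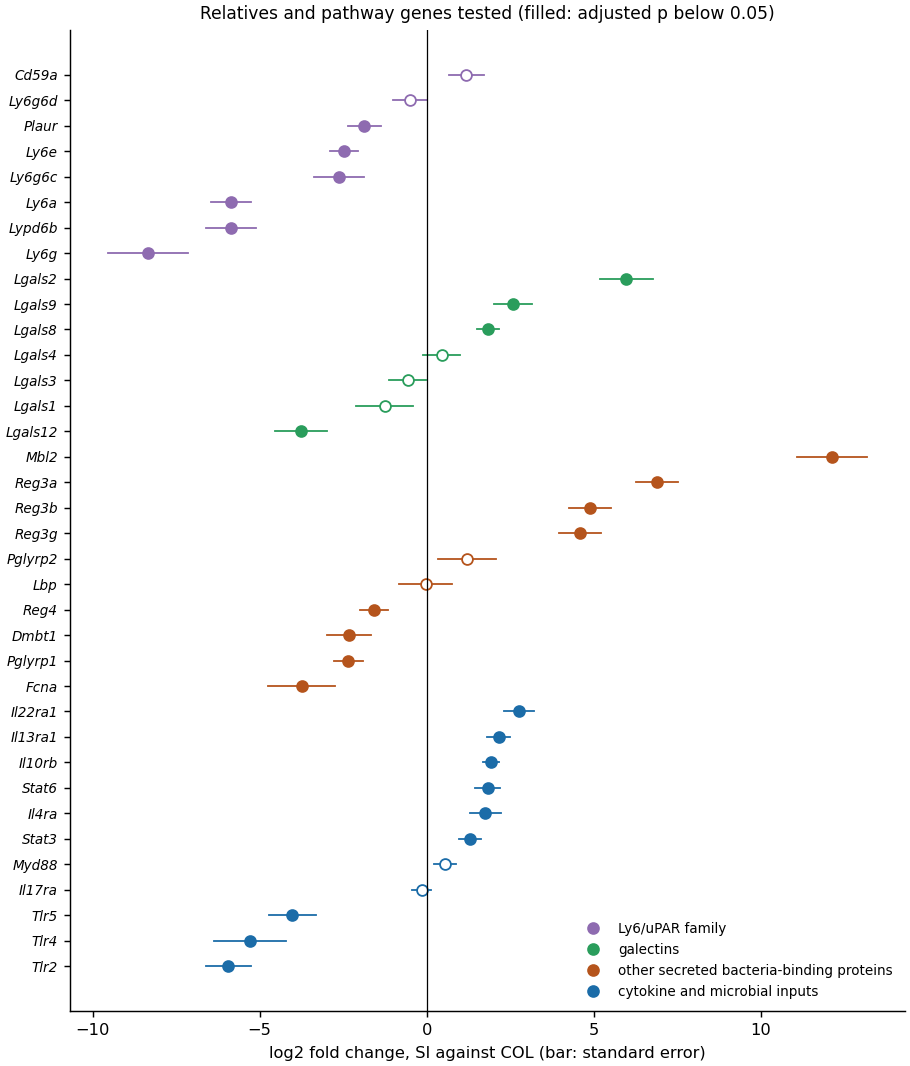
Log2 fold change of SI against COL with its standard error for the tested genes of 4 lists, coloured by list. Filled points had an adjusted p below 0.05 by edgeR, open points did not. Each called gene of the Ly6/uPAR list lies on the COL side, and the other 3 lists have called genes on both sides.

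Of 10 Paneth cell markers, 8 were higher in SI, the exceptions being Ang4 and Clps, which were not called. Of 10 goblet cell markers, 7 were higher in COL, and Fcgbp, Clca1 and Tff3 were not called. All 7 small intestinal enterocyte markers were higher in SI. Of 6 colonocyte markers, 3 were higher in COL (Car1, Car4 and Aqp8), while Krt20 and Ceacam20, which mark differentiated surface cells, were higher in SI. Of 4 epithelial markers, Vil1 was higher in SI. Of 4 immune markers tested, Cd3e of T cells was higher in SI, but 0 were called without SI1, SI4, COL1, COL2 or COL3 or under scaling by library size alone, and 3 were called without COL4. Of 4 stromal markers, Pecam1 of the endothelium was higher in COL, but 0 were called without SI3, SI4 or COL2, and 2 without SI2. Immune markers summed to 11.2 to 61.1 CPM and stromal markers to 3.25 to 11.6 CPM in any library, while Lypd8 and Zg16 were at 506 CPM or more in each.

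Profiles over the 8 libraries were compared with those of 3602 protein-coding genes by the root mean square difference of centred log2 CPM, where 0 would be an identical profile. Each comparison rests on 8 libraries that share tissue, depth and mitochondrial share. The difference is not divided by the spread of a gene, so it grows with the SI against COL difference, on which the members were selected. Its size is therefore not compared between members. Genes that are low in either tissue often fall below the mean log2 CPM of 5 that the pool required. Nearest to Lypd8 were Reg4 at 0.289, Tmem171 at 0.355 and Aldoa at 0.373, and nearest to Zg16 were Tff3 at 0.286, Cdkn1a at 0.417 and Mep1a at 0.441. Reg4 measured 84.2, 72.4, 62.1 and 51.4 CPM in SI1 to SI4 and 74.1, 161, 292 and 283 CPM in COL1 to COL4, with the low values in COL1 and COL2 as for Lypd8. For Itln1 the nearest genes were Slc43a2 at 0.775, Dpp4 at 0.801 and Asah2 at 0.837, and for Mptx2 they were Cps1 at 0.914, Slc5a1 at 1.14 and Mgam at 1.23. Several of these encode transporters or brush border enzymes of enterocytes. Nearest to both Mptx1 and Retnlb was St6galnac6, which encodes a sialyltransferase, at 1.37 and 1.35. It was followed for Mptx1 by 1810065E05Rik at 1.95 and Nupr1 at 2.21, and for Retnlb by Klk1 at 1.71 and Nupr1 at 1.75.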

How the data were processed

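Per the labels, total RNA was purified from crypts isolated by EDTA chelation and sequenced on an Illumina HiSeq4000. The submitters' processing notes name Trimmomatic 0.36 and STAR 2.5.2b, and the methods give mm10. The authors deposited raw counts per Ensembl gene, 1 column per library, without normalization. The annotation release and strand setting are not given in the sources used here. Samples were grouped by the tissue, sex and donor in the labels.

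Symbols, coordinates and lengths were taken from GENCODE vM21 (GRCm38), where 563 of 45706 identifiers had no match, and 250-base windows from RefSeq (GRCm38.p6), which held 4 of the 6 members. Itlnb, Lypd10 and Lgals6 were not analysed here. Sequences were aligned with Biopython 1.88.

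Counts were tested in R 4.3.3 with edgeR 4.0.16 (quasi-likelihood test, TMM, filterByExpr by tissue with a minimum of 10 counts, Benjamini-Hochberg adjustment over the 14491 genes kept, threshold 0.05). The SE was back-calculated as the unshrunk log2 coefficient divided by the square root of this test's F statistic, and is not a direct output of edgeR. Log2 CPM used a prior count of 2, except that the profiles of the listed genes were compared on CPM with a small fixed constant added. Sex groups by tissue shared 1 dispersion. Alternatives were limma 3.58.1 (voom), DESeq2 1.42.0, library size scaling, other filters, the donor block and leaving out each library. Those on the mitochondrial share (split at 20%) were added after seeing the data. The fits were tested on simulated data.

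SI and COL libraries were paired by the donor in the labels. Deviations from the tissue means correlated within a mouse with r = -0.24, 0.39, -0.08 and 0.33. The members and the gene lists were chosen with earlier results of these data known. The genes named are the members, the genes of the lists, and for each member the 3 non-member protein-coding genes nearest in profile whose log2 CPM averages 5 or more. Total counts of 15969428 to 32908060 make counting error small except where low counts are given, so the spread between mice limits the precision.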

Additional observations from a re-analysis of the deposited data

Results flagged for a closer look

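The SI minus COL difference of Zg16 had opposite signs in the pairs of mice. Each mouse labelled female had more Zg16 in SI (2.79 and 0.92 on the log2 scale) and each mouse labelled male had more in COL (-0.46 and -0.58), and the means differed by 2.37. This made the difference worth a closer look, although the interaction did not pass edgeR's test (adjusted p = 0.909). The Y-linked and Xist counts go against the sex labels in 8 of 8 libraries, so this direction belongs to mice 1 and 4 against mice 2 and 3 and not to a known sex. In SI, the mitochondrial share divides the mice in the same way, and the part of either was not tested.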

How the results depend on the processing

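As the 6 members were selected on the SI against COL contrast, their values under the alternatives are a description and say nothing of their stability. With the replicate block (donor mouse), 4 members had an adjusted p below 0.05 as without it, and 4072 genes were called in all. When each library was left out, the log2 fold change of Lypd8 lay between -1.76 and -1.09 and that of Zg16 between 0.40 and 1.21. Under scaling by library size alone they were -2.23 for Lypd8 and 0.09 for Zg16. Lypd8 was also among the genes called under that scaling, with DESeq2 and without COL1. The same held in the libraries with a low mitochondrial share and with that share as covariate. The genes called ranged from 3167 to 4480 and the related genes from 53 to 61 when a library was left out, and 2264 genes were called in the 4 libraries with a high mitochondrial share, against 5530 in the 4 with a low share (alternatives chosen after seeing the data), the cause of which was not tested. Lypd8 had a log2 fold change of -0.21 in the libraries with a high share. The members called between the mice within SI, within COL or in the interaction stayed at 0 without each library, but without a filter 1 member, Mptx2, was called within SI (log2 fold change -2.24, adjusted p = 0.00859 by edgeR) among 222 genes. The cause was not tested. DESeq2 called 131 genes within SI. Without SI replicate 3, the differences between the mice within SI reversed for Mptx1 (0.44) and Retnlb (4.04), both on few counts, and over all libraries left out they ranged from -2.31 and -5.76 to these values. Without that library the SI against COL log2 fold change of Mptx1 became -10.41 and that of Retnlb -10.03. Depth limits the values of Mptx1 and Retnlb in SI and of Mptx2 in COL.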
